A study of Mus musculus with 18 samples.

Results

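Lin28a, Otx2 and Tdgf1 were followed through 18 Affymetrix mouse arrays of total RNA, with 1 array per sample. They were taken as every probe set that the authors' list of probe sets higher than MEF names Lin28a, Otx2 or Tdgf1 (a set of short probes against the same transcript). The rule gave 3 probe sets of the 45037 that were not controls, 1437752_at for Lin28a, 1425926_a_at for Otx2 and 1450989_at for Tdgf1. The list held probe sets at least 10-fold above the MEF mean in each of the other 15 arrays, so these genes were chosen by their measured difference from MEF, and that difference was not tested.

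The samples were mouse embryonic fibroblasts (MEF, n = 3), mouse embryonic stem cells (mESC, n = 3) and 3 groups of induced pluripotent stem cells (iPSC), called OE + EpEX, KE + EpEX and OSKM (n = 4 each). MEFs came from E13.5 embryos that carried the doxycycline-controlled transactivator rtTA at the ROSA26 locus and GFP at the Oct4 locus (Pou5f1), and the labels give this strain for all 18 samples. iPSCs arose from these MEFs after PiggyBac transposons with doxycycline-inducible genes were introduced: Oct4 with EpCAM in OE + EpEX, Klf4 with EpCAM in KE + EpEX, and Oct4, Sox2, Klf4 and c-Myc in OSKM. In OE + EpEX and KE + EpEX the medium also held EpEX, the soluble extracellular part of the adhesion protein EpCAM. Doxycycline was given at 1.5 µg/mL for 21 days, and the cells were grown on feeder cells. The study describes the mESC samples and the iPSC samples of each group as different clones, and the iPSCs stem from MEFs of this strain. By their labels the MEF samples are biological replicates, but the series text mentions a primary culture. If samples of a group shared a culture, the p-values measure only the spread between these samples.

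Pluripotent cells pass from a naive state, close to that of the blastocyst, through a formative state to a primed state, from which they form the germ layers. Otx2 is a homeobox transcription factor that takes part in leaving the naive state. Lin28a is an RNA-binding protein that blocks the maturation of let-7 microRNAs, which are themselves abundant in differentiated cells such as fibroblasts. Tdgf1 (Cripto) is a membrane-anchored co-receptor for the ligand Nodal, which signals through activin receptors and Smad proteins. The comparisons below ask how near the level of these 3 genes in iPSCs came to that in mESCs, and whether the 3 sets of factors differed in it.

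Since the iPSC groups differ in the transcription factors that were introduced, the promoters of the 3 genes were searched on both strands for short motifs of those factors. The windows were those of RefSeq on GRCm38.p6, from 250 bases before to 50 bases after each annotated start, with 1 start for Lin28a, 4 for Otx2 and 1 for Tdgf1. The octamer ATGCAAAT bound by Oct4 (in 1.74% of all 32851 windows), the Sox motif CATTGTT (3.78%), the Klf4 motif GGGTGTGG (3.56%) and the E-box CACGTG bound by c-Myc (7.15%) were in no window of the 3 genes. The related motif GGGCGTGG of the Klf family, which includes Klf4, was present in 5.33% of all windows. It occurred 2 times in the Tdgf1 window and in no window of Lin28a or Otx2. The lack of GGGTGTGG thus does not mean that the Tdgf1 window lacks a motif for Klf4. In all, 0.728% of windows held GGGCGTGG 2 or more times. The Tdgf1 copies lie 45 to 38 and 26 to 19 bases before the start, in the same orientation as the gene. A match describes letters only, and no binding was measured. The 250 bases before the start are shown for Tdgf1 (chr9:110946159-110946408, minus strand) and for the most upstream start of Otx2 (chr14:48667645-48667894, minus strand), to set the window with matches beside one without. Capitals mark the motif. The Lin28a window (chr4:134018817-134019066, minus strand) is not printed, because RefSeq's span of Lin28a reaches past it to base 134019196, further upstream than the start used for the window.
Tdgf1: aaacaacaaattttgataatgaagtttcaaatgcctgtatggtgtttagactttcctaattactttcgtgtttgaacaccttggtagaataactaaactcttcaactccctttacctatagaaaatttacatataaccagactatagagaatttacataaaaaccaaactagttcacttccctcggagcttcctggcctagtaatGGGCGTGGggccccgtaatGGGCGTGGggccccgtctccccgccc
Otx2: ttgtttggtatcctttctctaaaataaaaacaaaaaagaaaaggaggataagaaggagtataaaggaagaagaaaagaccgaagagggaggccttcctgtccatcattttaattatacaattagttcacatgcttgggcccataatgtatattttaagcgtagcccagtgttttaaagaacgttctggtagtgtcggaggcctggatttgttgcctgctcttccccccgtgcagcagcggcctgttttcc

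Values are log2 levels that the authors shifted so that each probe set has a median of 0 over the 18 arrays. A value of 0 is thus the middle of the gene's own levels, a difference of 1 is a doubling, and values of different genes do not compare their abundance. Whether a transcript was detected in MEFs cannot be read from them.

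In MEFs the log2 level of Lin28a was −4.69, −4.82 and −5.37, that of Otx2 was −5.88, −5.91 and −6.14, and that of Tdgf1 was −9.63, −10.21 and −9.32. Each of the other 15 arrays was far above these values, as the rule required. The group mean of Lin28a was 52.2-fold the MEF mean in mESC, 35.1-fold in OSKM, 29.4-fold in OE + EpEX and 20.3-fold in KE + EpEX. For Otx2 the folds were 87.9, 71.5, 47.7 and 33.2 in the same order of groups. For Tdgf1 they were 1003 in mESC, 902 in OSKM, 746 in OE + EpEX and 792 in KE + EpEX. The lowest single array was 13.3-fold above the MEF mean for Otx2, 14.7-fold for Lin28a and 681-fold for Tdgf1. By this lowest fold Tdgf1 ranked 3 among the 477 probe sets of the list, Lin28a 291 and Otx2 344. The lowest value within the list was 10.03-fold and the highest outside it was 9.97-fold. The mean log2 difference of the 15 arrays from MEF was 4.97 for Lin28a, 5.77 for Otx2 and 9.73 for Tdgf1.

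**Figure D1:**
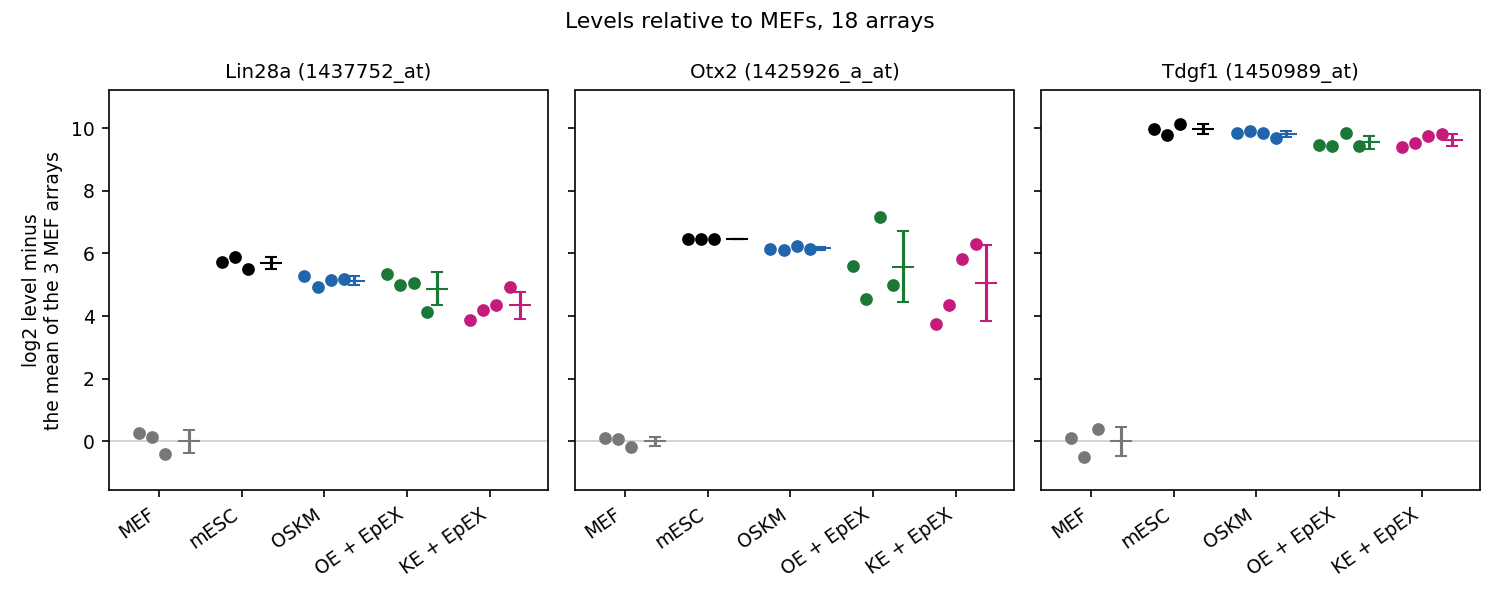
Log2 level of the Lin28a, Otx2 and Tdgf1 probe sets minus the mean of the 3 MEF arrays (y axis) in each group (x axis). Points are arrays, and the bar beside them is the group mean with its SD. All mESC and iPSC arrays stand above the MEF arrays, between 13.3-fold and 142-fold for Otx2, where the OE + EpEX and KE + EpEX arrays are spread most widely.

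Lin28a was lower in KE + EpEX than in mESC, and its levels in OE + EpEX and OSKM also lay below those of mESC without passing the test. Its log2 level in mESC was 0.75, 0.94 and 0.55 (0.75 ± 0.20, SD, n = 3). In OSKM it was 0.31, −0.02, 0.18 and 0.23 (0.17 ± 0.14, n = 4). In OE + EpEX it was 0.38, 0.02, 0.11 and −0.84 (−0.08 ± 0.53, n = 4). In KE + EpEX it was −1.08, −0.76, −0.61 and −0.02 (−0.62 ± 0.44, n = 4). Every iPSC array thus lay below every mESC array. The KE + EpEX arrays also lay below all OSKM arrays, though only just. KE + EpEX replicate 4 was at −0.0239 and OSKM replicate 2 at −0.0218, which is nearly a tie. OE + EpEX overlapped both OSKM and KE + EpEX, and its replicate 4 was well below the other 3.

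Groups were tested with limma over all 45037 probe sets, and a probe set was called at a Benjamini-Hochberg adjusted p under 0.05. The 3 comparisons with mESC share the same mESC arrays. In KE + EpEX Lin28a was at 38.8% of the mESC level, a log2 difference of −1.37 (SE 0.264, 95% interval −1.93 to −0.81, limma adjusted p = 0.00284). Leaving out any array of the compared groups gave −1.56 to −1.21, with adjusted p from 0.000759 to 0.0171. By the methods' t-test with Benjamini-Hochberg adjustment it was not called (adjusted p = 0.0692). In OE + EpEX the difference was −0.83 (interval −1.39 to −0.27), with an adjusted p of 0.0655. In OSKM it was −0.57 (interval −1.13 to −0.01), with an adjusted p of 0.212. In these last 2 comparisons the test did not call Lin28a although no arrays overlapped. All arrays of the iPSC group lay below all mESC arrays for 14.1% of probe sets (OE + EpEX), 12.4% (KE + EpEX) and 17.3% (OSKM). The OE + EpEX call depended on the settings: without OE + EpEX replicate 1 the adjusted p was 0.0429, and with the MEF arrays left out of the fit it was 0.0399. The OSKM call did so too, since a fit of OSKM and mESC alone gave an adjusted p of 0.00427.

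Between iPSC groups, Lin28a in KE + EpEX was at 57.7% of its OSKM level, a log2 difference of −0.79 (SE 0.244, interval −1.31 to −0.28). The unadjusted p was 0.00502 and the adjusted p was 0.375. In that comparison 4.01% of probe sets had every KE + EpEX array below every OSKM array, and limma called 0 probe sets (0.0%) at an adjusted p under 0.05 against 3479 at an unadjusted p under 0.05. OE + EpEX differed from OSKM by −0.26 (interval −0.77 to 0.26, adjusted p = 0.761 by limma) and from KE + EpEX by 0.54 (interval 0.02 to 1.06, adjusted p = 0.915).

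Otx2 was uniform in mESC and OSKM and varied widely among the OE + EpEX and KE + EpEX replicates, and no difference between groups passed the test. Its log2 level in mESC was 0.48, 0.48 and 0.48 (0.48 ± 0.0043, SD, n = 3). In OSKM it was 0.18, 0.14, 0.25 and 0.16 (0.18 ± 0.049, n = 4). In OE + EpEX it was −0.38, −1.43, 1.17 and −0.98 (−0.40 ± 1.13, n = 4). In KE + EpEX it was −2.24, −1.63, −0.14 and 0.32 (−0.93 ± 1.21, n = 4). OE + EpEX replicate 3 was the highest of all 15 arrays, above all mESC arrays, while the other 3 OE + EpEX arrays lay below all mESC and OSKM arrays. All KE + EpEX and all OSKM arrays lay below the mESC arrays, and KE + EpEX replicate 4 lay above all OSKM arrays.

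The spread of Otx2 within these 2 groups was wide for a probe set of the arrays, but not particular to Otx2. The fibroblast marker Col3a1 had a larger SD in both, 1.23 in OE + EpEX and 1.75 in KE + EpEX. Most other probe sets of the gene lists followed below had smaller SDs than Otx2. An SD at least as large was found for 0.291% of all probe sets in OE + EpEX and for 0.437% in KE + EpEX, where the median SDs were 0.148 and 0.168. In mESC 99.9% of probe sets had an SD at least as large as that of Otx2, and in OSKM 90.2% did. The SD of Lin28a was reached by 2.99% of probe sets in OE + EpEX and 7.22% in KE + EpEX, and that of Tdgf1 by 29.1% and 41.3%.

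**Figure D2:**
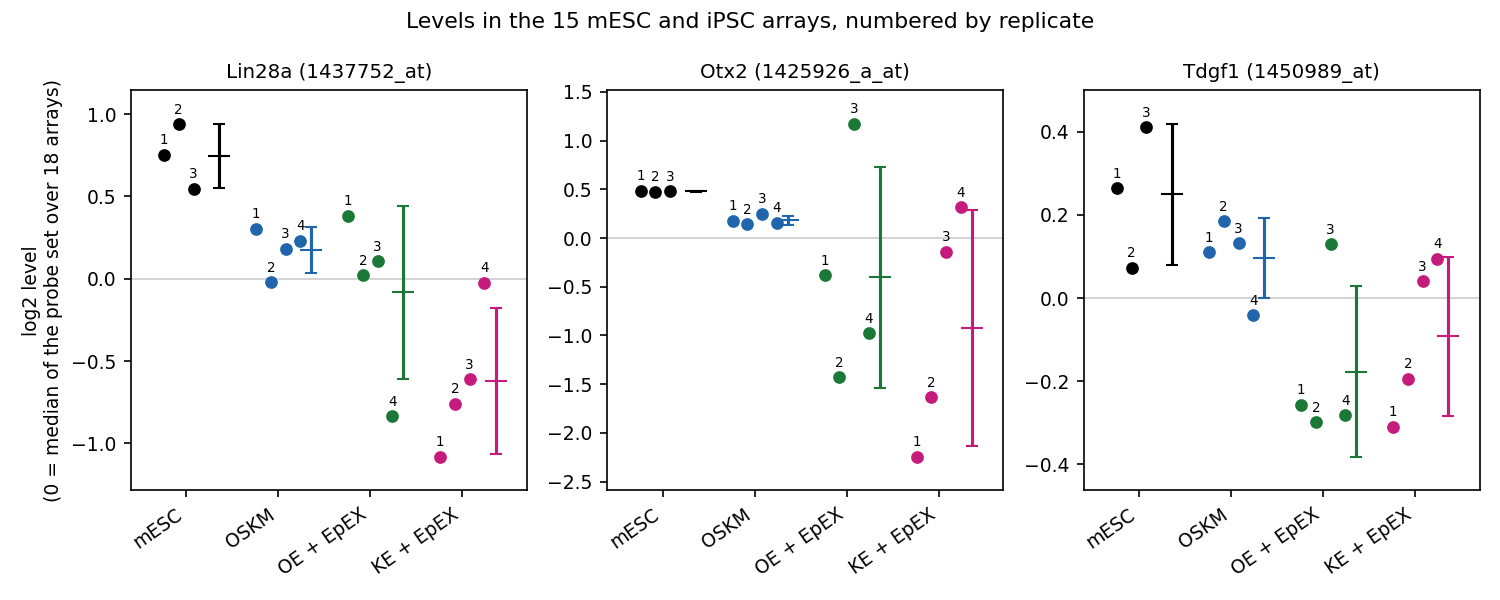
Log2 level of Lin28a, Otx2 and Tdgf1 (y axes, with a scale for each gene) in the 15 mESC and iPSC arrays by group (x axis). Points are arrays with their replicate number, and the bar beside them is the group mean with its SD. Lin28a arrays of all 3 iPSC groups lie below the mESC arrays, and Otx2 runs from −2.24 to 0.32 in KE + EpEX and from −1.43 to 1.17 in OE + EpEX.

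For Otx2 the log2 difference from mESC was −1.41 in KE + EpEX (SE 0.553, interval −2.58 to −0.23, limma adjusted p = 0.133). It was −0.88 in OE + EpEX (interval −2.06 to 0.29, adjusted p = 0.401) and −0.30 in OSKM (interval −1.47 to 0.87, adjusted p = 0.851). These intervals use a spread shared over all groups, and for OSKM it was far wider than the scatter of the OSKM and mESC arrays themselves. In a fit of those 2 groups alone the OSKM difference had an adjusted p of 0.0152. Without KE + EpEX replicate 4, the KE + EpEX difference was −1.82 with an adjusted p of 0.0349. Among iPSC groups Otx2 differed by −1.11 between KE + EpEX and OSKM (interval −2.19 to −0.02, adjusted p = 0.635) and by −0.58 between OE + EpEX and OSKM (interval −1.67 to 0.50, adjusted p = 0.732). OE + EpEX was 0.52 above KE + EpEX (interval −0.56 to 1.61, adjusted p = 0.985), and without OE + EpEX replicate 3 this difference was −0.00295.

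Tdgf1 had the smallest differences from mESC of the 3 genes in each iPSC group, and none of them was called. Its log2 level in mESC was 0.26, 0.07 and 0.41 (0.25 ± 0.17, SD, n = 3). In OSKM it was 0.11, 0.19, 0.13 and −0.04 (0.10 ± 0.097, n = 4). In KE + EpEX it was −0.31, −0.19, 0.04 and 0.09 (−0.09 ± 0.19, n = 4). In OE + EpEX it was −0.26, −0.30, 0.13 and −0.28 (−0.18 ± 0.21, n = 4). Every iPSC group overlapped the mESC arrays and the other iPSC groups. The log2 difference from mESC was −0.43 in OE + EpEX (SE 0.173, interval −0.79 to −0.06, limma adjusted p = 0.157), −0.34 in KE + EpEX (interval −0.71 to 0.03, adjusted p = 0.276) and −0.15 in OSKM (interval −0.52 to 0.21, adjusted p = 0.716). With the MEF arrays left out of the fit, the OE + EpEX difference had an adjusted p of 0.0363. Between iPSC groups the differences were −0.27 for OE + EpEX against OSKM, −0.19 for KE + EpEX against OSKM and −0.08 for OE + EpEX against KE + EpEX, with adjusted p of 0.552 and above by limma.

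Of the 3 genes, limma therefore called 1 lower in KE + EpEX than in mESC, where it called 6.39% of all probe sets lower and 10.6% in either direction. It called 0 of 3 against mESC in OE + EpEX (8.46% of all probe sets) and in OSKM (10.6%). Among iPSC groups it called 0 of 3 in OE + EpEX against OSKM (0.269% of all probe sets) and in KE + EpEX against OSKM or OE + EpEX (0.0% each). At an unadjusted p under 0.05 the numbers against mESC were 1 in OSKM (22.2% of all probe sets), 2 in OE + EpEX (21.3%) and 2 in KE + EpEX (21.7%). Against OSKM they were 0 for OE + EpEX (11.5%) and 2 for KE + EpEX (7.72%), and 1 of the 3 differed between OE + EpEX and KE + EpEX (5.43%). All 3 genes had a mean below that of mESC in each iPSC group, while the median difference over all probe sets was −0.02 in OSKM, −0.05 in OE + EpEX and −0.02 in KE + EpEX. In the order of group means mESC was highest and OSKM was next for each gene. Lin28a and Otx2 then had OE + EpEX above KE + EpEX, and Tdgf1 had KE + EpEX above OE + EpEX. Apart from KE + EpEX against mESC for Lin28a, no pair of groups in these orders differed by the test.

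**Figure D3:**
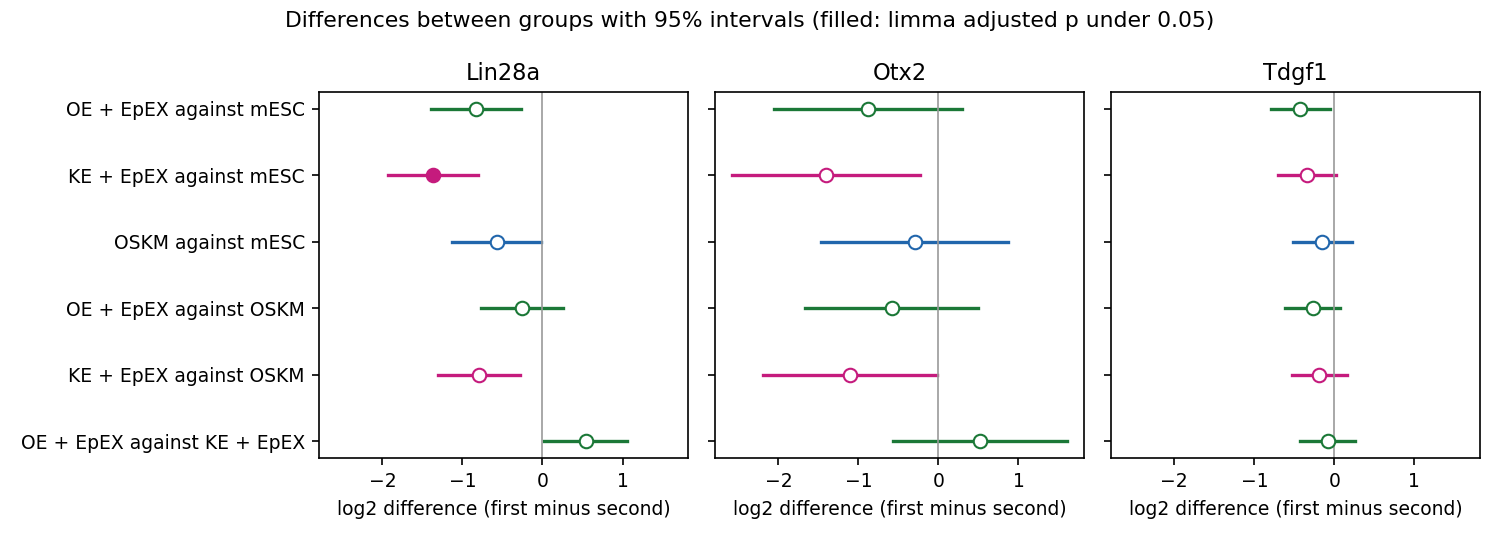
Log2 difference between groups (x axis, first group minus second) for the 6 tested comparisons (rows) of Lin28a, Otx2 and Tdgf1. Circles are limma estimates with 95% intervals, filled where the adjusted p is under 0.05, which holds for Lin28a in KE + EpEX against mESC (−1.37) and for no other.

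The same arrays tended to be lowest for all 3 genes. KE + EpEX replicate 1 had the lowest level of Lin28a, Otx2 and Tdgf1 among the 15 mESC and iPSC arrays, and KE + EpEX replicate 4 had the highest level of each within its group. Over these 15 arrays Pearson's r was 0.82 between Otx2 and Tdgf1, 0.73 between Otx2 and Lin28a and 0.61 between Lin28a and Tdgf1. These values describe arrays that share groups and culture, and were not tested.

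Among the 903 other probe sets with 1 gene name in the authors' lists, those most like Lin28a over the 15 arrays were Rad54l (Pearson's r = 0.96), Cdca7 (0.91) and Polr3g (0.91). Those most like Otx2 were Fam169a (0.96), another Rad54l probe set (0.94) and Upp1 (0.90). Those most like Tdgf1 were Upp1 (0.92), BC055324 (0.92) and Hmgb2 (0.92). Rad54l is a helicase-like protein of homologous recombination, Cdca7 a cell-cycle gene tied to MYC, Polr3g a subunit of RNA polymerase III, Upp1 the enzyme uridine phosphorylase and Hmgb2 a chromatin protein. Over the 12 iPSC arrays alone these 9 correlations were between 0.84 and 0.96. By ranks (Spearman) over the same 12 arrays they ran from 0.61 for Cdca7 with Lin28a to 0.97 for Fam169a with Otx2.

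Fibroblast markers differed between the arrays as well, and their part in the levels of the 3 genes was not tested. Their combined level, the geometric mean of 8 probe sets of 7 genes as a percentage of its MEF mean, was 1.03 to 1.24% in mESC and 1.38 to 1.58% in OSKM. It was 4.60, 2.50, 1.28 and 0.912% in KE + EpEX replicates 1 to 4 and 1.70, 1.53, 1.91 and 3.50% in OE + EpEX replicates 1 to 4. KE + EpEX replicate 1, with the highest marker level of the iPSC arrays, had the lowest Lin28a, Otx2 and Tdgf1. OE + EpEX replicate 4, with the next highest, had the next lowest Lin28a. KE + EpEX replicate 2 followed in marker level (2.50%). Counted from the highest of the 15 mESC and iPSC arrays, it ranked 13 in Lin28a, 14 in Otx2 and 11 in Tdgf1. OE + EpEX replicate 2 was low in Otx2 and Tdgf1 at a marker level of 1.53%, and KE + EpEX replicates 3 and 4 were below all mESC arrays in Lin28a at 1.28 and 0.912%. Of the 8 probe sets limma called 0 against mESC in each iPSC group (10.6% of all probe sets in OSKM and KE + EpEX, 8.46% in OE + EpEX). At an unadjusted p under 0.05 there were 2 in each. The share of all probe sets was near that, 22.2% in OSKM, 21.3% in OE + EpEX and 21.7% in KE + EpEX. The median log2 differences of the 8 probe sets were 0.45 in OSKM, 1.06 in OE + EpEX and 1.03 in KE + EpEX. KE + EpEX replicate 1 and OE + EpEX replicate 4 were left out in 1 further fit, chosen after seeing the data. It kept KE + EpEX replicate 2, with a marker level of 2.50%. There Lin28a in KE + EpEX was called against mESC (−1.21, limma adjusted p = 0.0018). Otx2 differed from mESC by −0.97 in KE + EpEX and by −0.69 in OE + EpEX (limma adjusted p of 0.352 and 0.572). In such bulk samples fewer cells that express a gene and less RNA per cell cannot be told apart. The MEF arrays themselves held 36.6% (replicate 1), 162% and 169% of the MEF marker mean. Of the pluripotency markers, 7 of 8 genes were named, each 10-fold or more above MEF in all 15 arrays by the rule of the list. Against mESC, Epcam was called higher in OSKM (0.54), OE + EpEX (0.86) and KE + EpEX (0.58), and the other 6 were not called. OE + EpEX and KE + EpEX had received EpCAM and OSKM had not, and a part of the introduced gene in these values was not tested. The Epcam call was kept with each array left out in OE + EpEX, was lost with any array left out in OSKM (adjusted p from 0.0529 to 0.159) and was kept in 2 of 7 such fits in KE + EpEX (up to 0.126 without one of mESC replicates 1 and 2 or KE + EpEX replicates 1, 2 and 3). Markers of endoderm, mesoderm, nervous system and trophoblast had 0 named probe sets and could not be set beside the 3 genes.

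**Figure D4:**
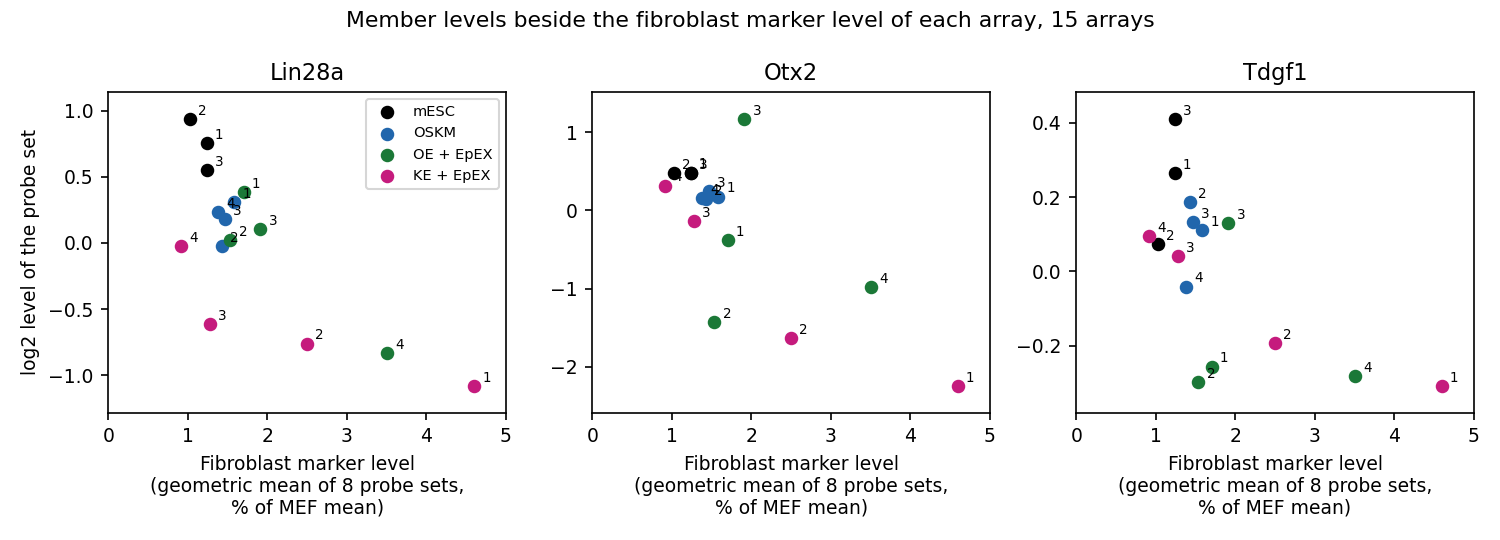
Log2 level of Lin28a, Otx2 and Tdgf1 (y axes) against the fibroblast marker level (x axis, geometric mean of 8 probe sets as a percentage of the MEF mean) in the 15 mESC and iPSC arrays. Points are arrays numbered by replicate and coloured by group, and KE + EpEX replicate 1 (4.60%) has the lowest level of all 3 genes.

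The pathways around the 3 genes were only partly visible, because a gene had a name only if its probe set was in one of the authors' lists of differences from MEF. For Nodal and activin signalling, 4 of 28 listed genes were named, with 6 probe sets: the ligands Nodal and Gdf3, the co-receptor Tdgf1 and the Smad partner Foxh1. No named probe set represented the receptors, the inhibitors Lefty1, Lefty2 and Cer1, or the targets. Nodal was higher in OSKM than in mESC by both probe sets, with log2 differences of 0.91 (1422057_at, limma adjusted p = 0.0311) and 0.80 (1422058_at, adjusted p = 0.0331). For 1422057_at the levels were −0.74, −0.51 and −0.76 in mESC, 0.13, 0.32, 0.23 and 0.26 in OSKM, −0.13, −0.34, 0.14 and 0.35 in OE + EpEX and 0.39, 0.32, −0.81 and 0.17 in KE + EpEX. Its mean was thus above that of mESC in each iPSC group, whereas that of its co-receptor Tdgf1 was below. These calls were close to the threshold. With any of the 7 mESC or OSKM arrays left out, 1422058_at was not called (adjusted p from 0.0629 to 0.114), and 1422057_at was called only without mESC replicate 2 (0.05 to 0.116). The Nodal differences in OE + EpEX (0.67 and 0.55) and KE + EpEX (0.69 and 0.61) were not called. Of the 6 probe sets, 2 were called higher in OSKM (4.39% of all probe sets), and 0 in OE + EpEX (3.93%) and KE + EpEX (4.21%). The medians were 0.23 in OSKM, −0.06 in OE + EpEX and 0.11 in KE + EpEX.

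For Lin28 and let-7, 4 of 19 genes were named, Lin28a and the let-7 targets Trim71, Igf2bp1 and Mycn. Lin28a in KE + EpEX was the only one of the 4 probe sets called in any comparison with mESC, and the other 3 had log2 differences between −0.39 and 0.21. MicroRNAs themselves were not analysed here.

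For the formative and primed state, 7 of 22 genes were named, with 11 probe sets. Those called against mESC were higher, not lower: Dnmt3b, a de novo DNA methyltransferase, in OE + EpEX (1.09 and 1.03, limma adjusted p = 0.0311 and 0.0476) and OSKM (1.59 and 1.49, adjusted p = 0.00225 and 0.00431), and its cofactor Dnmt3l in OSKM (1.28, adjusted p = 0.0345). The Dnmt3b calls in OSKM were kept with each array left out. In OE + EpEX both were lost without mESC replicate 1 or 3 or OE + EpEX replicate 1, 2 or 3 (limma adjusted p up to 0.162 and 0.208), after quantile normalization without MEF and by the methods' t-test after adjustment. That of Dnmt3l was lost with any array left out (adjusted p from 0.0663 to 0.123). The levels of Dnmt3b (1418351_a_at) were −0.61, −0.09 and −0.88 in mESC, 1.23, 1.03, 0.97 and 1.01 in OSKM, 1.12, 0.59, 0.71 and −0.18 in OE + EpEX and 0.09, −0.20, 0.64 and −0.57 in KE + EpEX. OSKM was above every mESC array for this gene, while Otx2 in OSKM was below every mESC array but was not called. All OSKM arrays lay above all mESC arrays for 14.0% of probe sets and below them for 17.3%.

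For the naive state, 13 of 16 genes were named, with 14 probe sets. Zfp42 (Rex1) and Nr5a2, a nuclear receptor, were lower than in mESC in all 3 iPSC groups. The log2 differences of Zfp42 from mESC were −1.96 in OSKM, −1.78 in OE + EpEX and −1.68 in KE + EpEX, and those of Nr5a2 were −2.02, −1.58 and −1.45. These calls were kept under all alternatives. Dppa3 (Stella) was higher in KE + EpEX (1.42, limma adjusted p = 0.0437), a call lost without any of the mESC arrays or KE + EpEX replicate 1 or 2 (adjusted p up to 0.13). The other 11 probe sets of the 14 were not called in any comparison with mESC, among them those of Nanog, Esrrb and Tfcp2l1. In KE + EpEX the level of Zfp42 lay between −0.05 and 0.43, where that of Otx2 ranged from −2.24 to 0.32. Between iPSC groups limma called 0 probe sets of these 4 lists, and at an unadjusted p under 0.05 there were 6 of 35 in OE + EpEX against OSKM (11.5% of all probe sets), 11 of 35 in KE + EpEX against OSKM (7.72%) and 3 of 35 between OE + EpEX and KE + EpEX (5.43%).

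**Figure D5:**
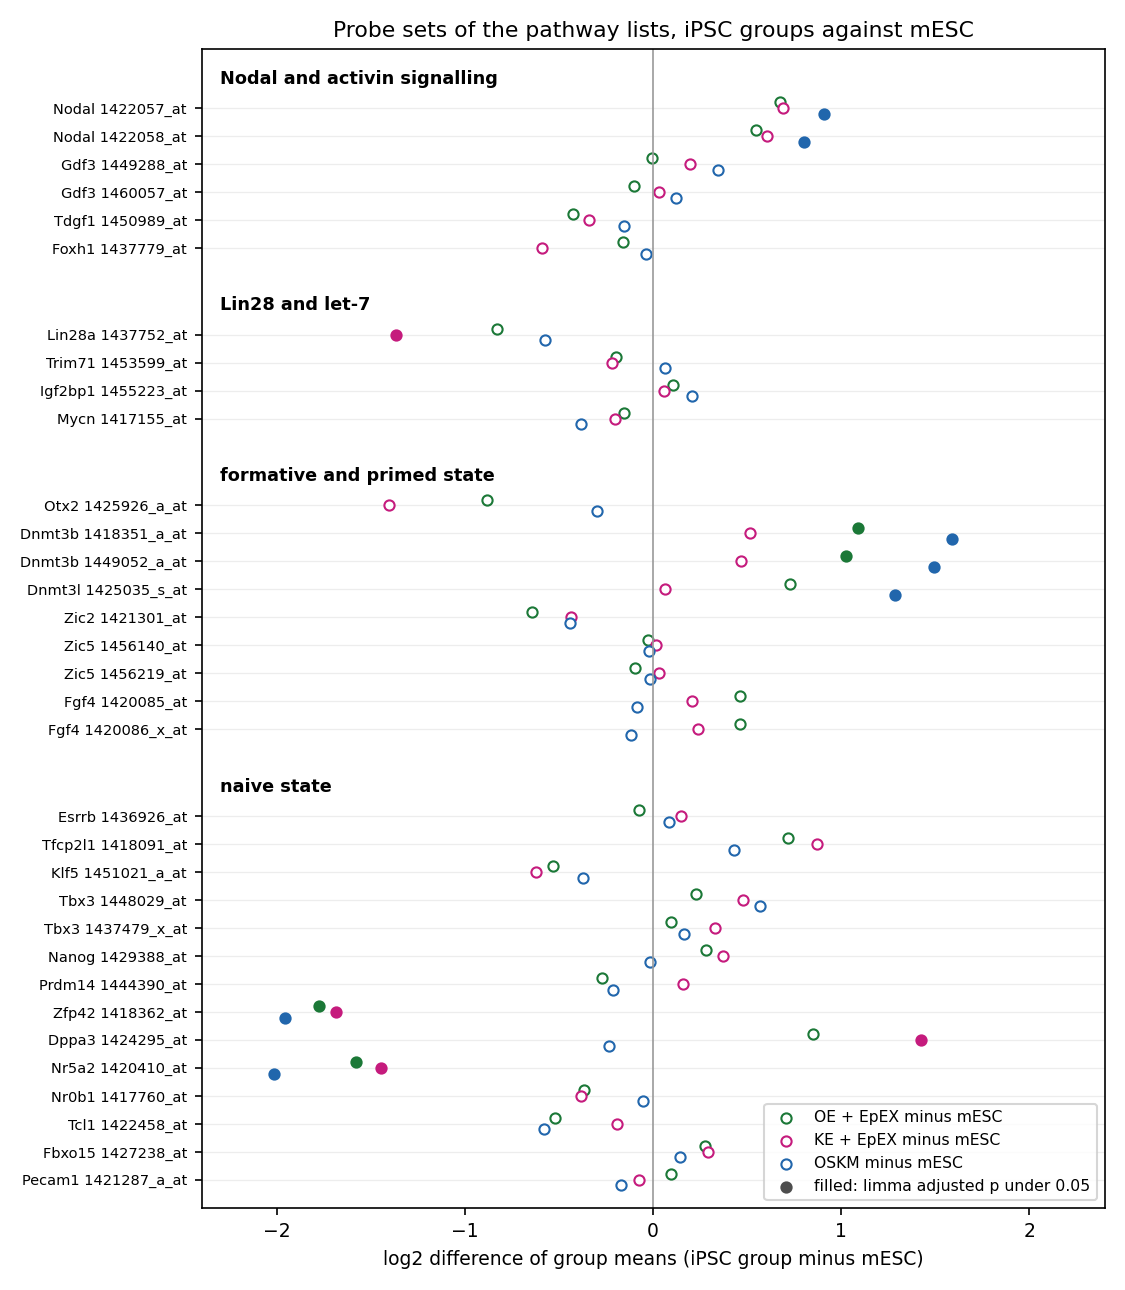
Log2 difference of group means from mESC (x axis) for named probe sets of the 4 pathway lists (rows), in OE + EpEX, KE + EpEX and OSKM. Circles are limma estimates, filled where the adjusted p is under 0.05. Filled circles on the left are Lin28a in KE + EpEX and Zfp42 and Nr5a2 in all 3 groups, and those on the right are Nodal and Dnmt3l in OSKM, Dnmt3b in OE + EpEX and OSKM and Dppa3 in KE + EpEX.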

How the data were processed

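RNA of MEF, mESC and iPSC samples was hybridized to Affymetrix mouse arrays. The authors processed them with GeneSpring GX and deposited 1 log2 value per probe set and array, after setting every probe set's median over 18 arrays to 0 (largest deviation 5.0e-07). The submitters' processing notes name RMA and MAS5 without their roles, and the software version is not given in the sources used here. Trizol and biotin are named in the labels, RNeasy and Cy3 in the methods. The deposited lists also hold fold ratios to the MEF mean, which gave names only.

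Groups were taken from the labels, and 64 control probe sets were left out. Values as deposited went into 1 limma model of all 18 arrays with a mean per group (limma 3.58.1 under R 4.3.3, default eBayes), from which 6 comparisons were drawn, with Benjamini-Hochberg adjustment within each. The step was also run on simulated data with normal noise, where each probe set had 1 spread shared by all groups. In the arrays the spread can differ between groups, as for Otx2 (SD 0.0043 in mESC and 1.21 in KE + EpEX). The simulation therefore does not show how the test behaves for such probe sets. Figures and summaries used Python 3.11.15, numpy 2.4.6, pandas 2.3.3 and matplotlib 3.10.9. Promoter sequences are those of RefSeq.

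The members and lists were chosen with earlier results of these data known. Named were the members, list genes called against mESC and the 3 other named genes most like each member by Pearson's r. Probe sets with several symbols (27 of those listed) or none (17) were not used by name. The alternatives were thresholds (a log2 difference of 1, an adjusted p of 0.01), median centring, quantile normalization, fewer groups or arrays, the upper 50% of probe sets by SD, trend and robust options, the replicate number as a block and the methods' t-test. An item of the formative and primed list is not reported here by name and is left out of the plot of the lists. The files name no genome build. The number of arrays limits the precision, and array medians ranged from −0.03 to 0.07.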

Additional observations from a re-analysis of the deposited data

Results flagged for a closer look

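Among 9 groups of 4 arrays, 3 for each gene, 1 array stood far from the others of its group. Tdgf1 in OE + EpEX replicate 3 had a log2 level of 0.13, whereas the other 3 arrays of that group were at −0.26, −0.30 and −0.28, and the gap to the nearest was 0.901 of the whole range. Chance marks about 1 in 20 groups in this way, which comes to 0.45 of 9. The same array had the highest Otx2 level of the 15 arrays (1.17) and a Lin28a level (0.11) inside the range of its group.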

How the results depend on the processing

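The log2 differences of Lin28a, Otx2 and Tdgf1 from mESC stayed below 0 in 108 of 108 recomputations. These were 5 other treatments of the arrays and leaving out each array. Among the 5, leaving out KE + EpEX replicate 1 and OE + EpEX replicate 4 could not move the OSKM differences, which are counted all the same. Where no arrays overlapped, leaving out an array could change the size of a difference but not its sign. This holds for Lin28a in each iPSC group and for Otx2 in KE + EpEX and OSKM. Thresholds, tests and the choice of groups leave the difference itself as it is. The 1 reversal was Otx2 in OE + EpEX against KE + EpEX without OE + EpEX replicate 3 (−0.00295, and 0.936 at most with another array left out). Of the 3 genes, the number called in OE + EpEX against mESC was 2 with MEF arrays left out, 1 with the upper 50% by SD, 1 by the methods' t-test unadjusted, and 0 to 1 with an array left out. In KE + EpEX against mESC it was 0 by the methods' t-test after Benjamini-Hochberg adjustment (Lin28a, adjusted p = 0.0692) and 1 to 2 with an array left out. In OSKM against mESC it was 2 with only those groups fitted and by that test either way, and in KE + EpEX against OSKM it was 1 by that test unadjusted. The share of all probe sets called under each of these settings is not set beside these counts. They therefore do not show whether the 3 genes changed more than probe sets in general. The cause of these changes was not tested.

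Probe sets of the 4 pathway lists called in OE + EpEX, KE + EpEX and OSKM against mESC numbered 4, 4 and 7. In OE + EpEX there were 2 at an adjusted p under 0.01, 2 after quantile normalization without MEF, 9 with MEF arrays left out, 8 with only the compared groups, 14 by the methods' t-test unadjusted, 2 after adjustment and 2 to 4 with an array left out. In KE + EpEX there were 8 with MEF arrays left out, 9 by the unadjusted t-test and 3 to 8 with an array left out. In OSKM there were 4 at an adjusted p under 0.01, 14 with only the compared groups, 16 by that test either way and 4 to 5 with an array left out. Against OSKM, 0 became 6 in OE + EpEX after quantile normalization of all arrays, 3 without MEF, 2 with only the compared groups and 10 by the unadjusted t-test, and in KE + EpEX 5, 5 without MEF, 8 by that test and 0 to 5 with an array left out. Between OE + EpEX and KE + EpEX that test gave 1. These counts too lack the share of all probe sets called under the same setting.

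With MEF replicate 3 alone as the reference, the mean log2 difference from MEF was 5.93 for Otx2 and 5.38 for Lin28a, and with MEF replicate 2 alone 10.22 for Tdgf1. Quantile normalization of all arrays gave 1.53, 1.53 and 4.04 for Otx2, Lin28a and Tdgf1. As the values are centred per probe set, it shrinks by construction the arrays that deviate most (array SD from 0.193 to 1.39), so this does not bear on the size of the folds. With the replicate number as a block, Lin28a in KE + EpEX against mESC was −1.35 (limma adjusted p = 0.0117), and no call on the 3 genes changed. No pairing by number was evident. Of 21 pairs of same-numbered arrays among the mESC and iPSC groups, 2 had deviations correlated above 0.1 (−0.36 to 0.25), and 4 correlated best with their own number. Pairs with MEF are outside this count. Among them, replicate 1 of MEF and OE + EpEX (0.108) and replicate 3 of MEF and OSKM (0.051) also correlated best with their own number. With so few arrays per group this check cannot exclude pairing. Leaving out KE + EpEX replicate 1 and OE + EpEX replicate 4 was chosen after seeing the data. Signal over background is unknown in centred values, so no limit of detection can be given.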
